A study of Mus musculus with 3 samples.

Results

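Platelet-derived growth factor (PDGF) ligands and their receptors were examined in 3 sorted populations of mouse bone cells. The members were the receptor genes Pdgfra and Pdgfrb, the receptor-like gene Pdgfrl and the ligand genes Pdgfa, Pdgfb, Pdgfc and Pdgfd, 7 of the 18193 genes with a named probe set on the array. They were taken by gene symbol, not by their values, but the family was chosen with earlier results of these data known. In all, 15 probe sets (groups of short probes that together report a transcript) carried these symbols. All 3 populations came from C57BL/6 mice. Collagenase released the cells from fragments of the thigh and shin bones (femur and tibia). The labels call them endosteal, from the inner bone surface, and name bone marrow as the source. Cells bearing CD45 (blood cells), CD31 (endothelium) or Ter119 (erythroid cells) were removed. The rest were sorted on PDGFRα and on Sca-1, a surface protein found on stem and progenitor cells. PDGFRα−Sca-1− cells are called double-negative here, PDGFRα+Sca-1− cells single-positive, and PDGFRα+Sca-1+ cells double-positive. No allele or treatment is named, and neither the age and number of mice nor any pooling is given in the sources used here. Each population had 1 array, so no difference below has a replicate check and no p-value was computed.

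PDGFs are secreted dimers of A, B, C and D chains. They bind PDGFRα and PDGFRβ, receptor tyrosine kinases that pair up on the cell surface and switch on growth, survival and migration pathways. The A and C chains act mainly through PDGFRα, the D chain mainly through PDGFRβ, and the B chain through both. The C and D chains are secreted in a latent form that must be cut before it can bind a receptor. In mesenchymal tissues PDGFRα marks fibroblasts and skeletal progenitors, and PDGFRβ is known from pericytes and stromal cells around vessels.

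Signals are array units on a linear scale, brought to a common level on the 3 arrays. A signal of 93.2, the mean of the array medians, served as a floor under which a signal was not read as expression. Signals of different probe sets are not comparable with each other, so each is followed across the 3 arrays only. Of the 15 probe sets, 11 were above the floor on all 3 arrays, 2 on 1 array and 2 on none. A gene is described by the probe set whose mean log2 signal was highest, with the others beside it, and a ratio of 2-fold or more is counted as a difference. With bulk populations, fewer cells that express a gene and less of its RNA per cell cannot be told apart.

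The stretches of genome before the listed start sites are shown for the genes whose signals followed the sorting steps most closely (Pdgfra and Pdgfc) and for Pdgfa, which was highest in single-positive cells. Pdgfd is shown because 1 of its 3 probe sets separated the PDGFRα− from the PDGFRα+ populations. From the RefSeq promoter table of GRCm38.p6, 5 windows were used, which belong to 4 of the 7 members. Pdgfrb was left out of this selection, so its absence here does not show that the table lacks a window for it. Windows of 250 bases were searched on both strands for 6 short motifs: the GC box (GGGCGG), the TATA box (TATAAA), the E-box (CANNTG), the AP-1 site (TGANTCA), the homeodomain core (TAATTA) and the RUNX site (TGTGGT). Capitals mark the E-box in Pdgfra, GC boxes in Pdgfa and the TATA box in Pdgfd. The sequence of Pdgfc held no match to any of the 6 and has no capitals. Sequences are written 5′ to 3′ on the strand of the gene. Pdgfra lies at chr5:75152001-75152250 (plus strand), Pdgfc at chr3:81036166-81036415 (plus), Pdgfa at chr5:138994945-138995194 (minus) and Pdgfd at chr9:6168236-6168362 (plus).
Pdgfra: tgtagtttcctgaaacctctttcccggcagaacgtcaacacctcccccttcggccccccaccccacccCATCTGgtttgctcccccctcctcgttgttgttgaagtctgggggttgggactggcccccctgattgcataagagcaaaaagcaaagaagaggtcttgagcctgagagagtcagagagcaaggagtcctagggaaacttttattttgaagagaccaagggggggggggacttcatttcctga
Pdgfc: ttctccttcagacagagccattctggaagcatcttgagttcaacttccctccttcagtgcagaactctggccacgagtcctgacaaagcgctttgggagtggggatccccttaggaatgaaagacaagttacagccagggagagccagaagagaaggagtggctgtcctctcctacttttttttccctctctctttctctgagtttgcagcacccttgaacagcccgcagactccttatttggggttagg
Pdgfa: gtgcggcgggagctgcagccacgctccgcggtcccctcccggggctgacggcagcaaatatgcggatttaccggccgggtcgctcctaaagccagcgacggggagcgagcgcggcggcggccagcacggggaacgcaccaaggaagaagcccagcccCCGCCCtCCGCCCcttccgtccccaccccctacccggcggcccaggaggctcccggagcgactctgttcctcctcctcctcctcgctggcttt
Pdgfd: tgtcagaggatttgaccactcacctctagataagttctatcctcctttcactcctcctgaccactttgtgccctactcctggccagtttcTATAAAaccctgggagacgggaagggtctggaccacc

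The windows differed in base composition. The Pdgfa window shown was 72.4% G and C, and its ratio of observed to expected CpG was 0.871. Its other window, before a listed start further downstream, was 66.4% G and C with a ratio of 0.819. The windows of Pdgfra, Pdgfc and Pdgfd were 54.4%, 50.8% and 53.6% G and C, with CpG ratios of 0.216, 0.187 and 0.176. The medians over all 32851 windows were 52.4% and 0.374, so Pdgfa stood on the CpG-rich side and the other 3 on the CpG-poor side. The Pdgfa window held 2 GC boxes, which began 93 and 86 bases before the listed start, and the other Pdgfa window held 1. At least 1 GC box was present in 32.7% of all windows. The only match in Pdgfra was an E-box 182 bases before the listed start, a motif found in 66.2% of windows. The TATAAA of Pdgfd began 160 bases before the listed start, which is 37 bases before the annotated start of the gene. This motif was held by 12.4% of windows. The AP-1, homeodomain and RUNX motifs, present in 6.75%, 4.84% and 14% of windows, had no match in these 5. The listed starts lie inside the annotated gene for Pdgfra (by 929 bases), Pdgfd (123 bases) and the Pdgfa window shown (5848 bases), and at the gene start for Pdgfc. For Pdgfd only the bases before the annotated gene start are printed. These matches are letters in a window and are not measurements of binding.

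The sorting marker came first. Pdgfra, which encodes the receptor used for the gate, had by probe set 1421917_at signals of 586 in double-negative, 2420.4 in single-positive and 12846 in double-positive cells. A second probe set read 216, 977 and 6163, and the third read 93.7, 160.3 and 955. All 3 probe sets were thus lowest in the population labelled PDGFRα− and highest in double-positive cells. The lowest value of the third probe set lay at the floor, but the other 2 remained above it in the PDGFRα− population. The double-positive array held between 79.0% and 83.8% of the signal summed over the 3 arrays. From double-negative to single-positive cells, a difference that the gate itself sets, the ratio was 4.13-fold, 4.51-fold and 1.71-fold by the 3 probe sets. The gate does not set the step from single-positive to double-positive cells, where it was 5.31-fold, 6.31-fold and 5.96-fold. Across all genes compared at that step, 3.05% had a higher ratio than Pdgfra.

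**Figure D1:**
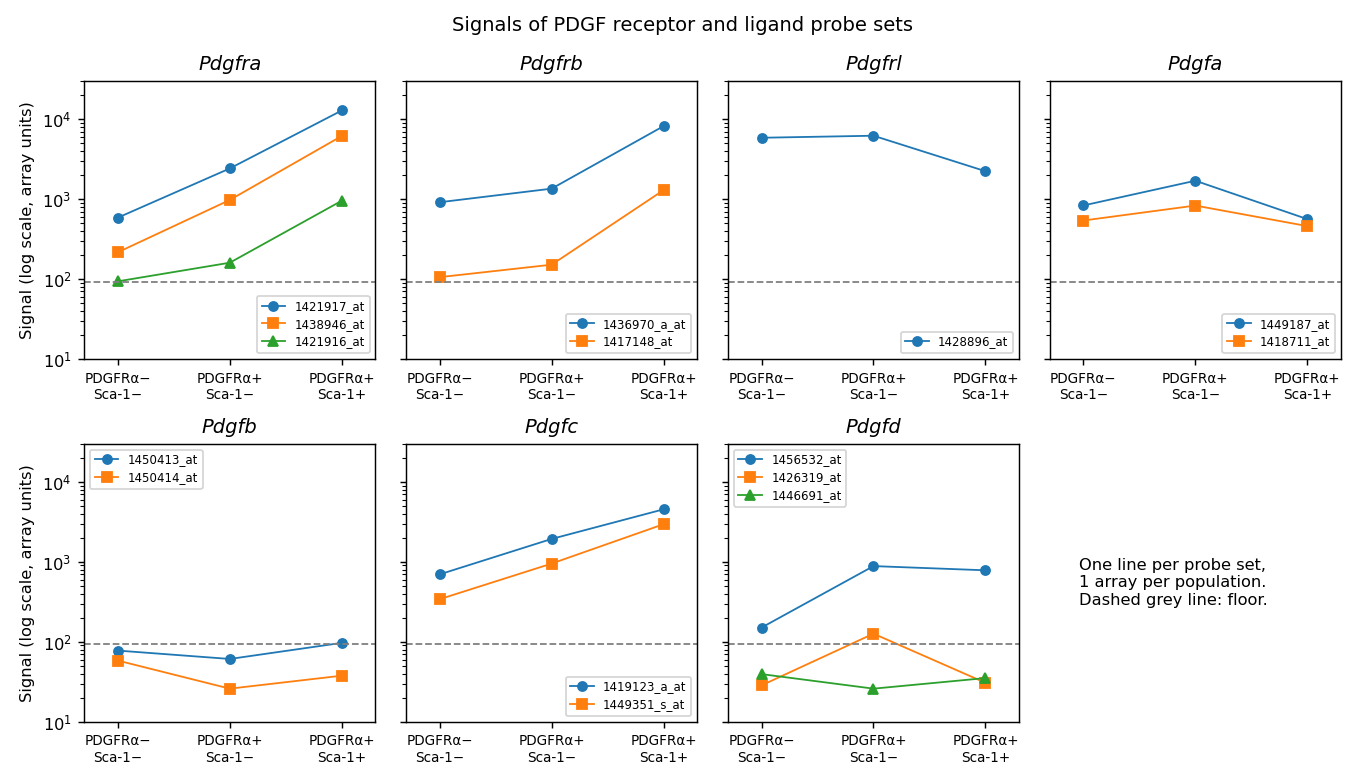
Signals of the 15 probe sets of the PDGF receptor and ligand genes on the 3 arrays, on a log axis, with a line per probe set and the floor of 93.2 dashed. The probe sets of Pdgfra, Pdgfrb and Pdgfc are highest in double-positive (PDGFRα+Sca-1+) cells, Pdgfrl is lowest there, Pdgfa is highest in single-positive (PDGFRα+Sca-1−) cells, and Pdgfb stays near or under the floor.

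Pdgfrb, the gene of the other receptor, was not used in the sort. Its signals by probe set 1436970_a_at were 914 in double-negative, 1352 in single-positive and 8195 in double-positive cells, and its other probe set read 106, 151 and 1297. The 2 populations without Sca-1 lay close to each other and the double-positive population stood well above both. Between double-negative and single-positive cells the ratio was 1.48-fold and 1.43-fold by the 2 probe sets, within 2-fold. Between single-positive and double-positive cells it was 6.06-fold and 8.57-fold. The double-positive array held 78.3% and 83.5% of the summed signal, close to the shares of Pdgfra. Pdgfra and Pdgfrb therefore shared the step at Sca-1 but not the one at PDGFRα, where only 2 of the 3 Pdgfra probe sets passed 2-fold.

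Pdgfrl encodes a secreted protein that resembles the outer part of a PDGF receptor and has no kinase domain. Its single probe set, 1428896_at, read 5857 in double-negative, 6209.6 in single-positive and 2235 in double-positive cells. Its direction at the Sca-1 step opposed that of the 2 receptors. Its ratio between the Sca-1− populations was 1.06-fold, and the double-positive signal was 2.78-fold lower than in single-positive and 2.62-fold lower than in double-negative cells. No other probe set was there to check it.

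Among the ligands, Pdgfc had the signal pattern nearest to that of Pdgfra. Its signals by probe set 1419123_a_at were 697 in double-negative, 1934 in single-positive and 4539.6 in double-positive cells, and 341, 951 and 2956 by its other probe set. Both probe sets were higher at each step. The first step was 2.77-fold and 2.79-fold and the second 2.35-fold and 3.11-fold. From double-negative to double-positive cells Pdgfc was 6.51-fold and 8.67-fold higher. Populations with more signal for PDGFRα thus also had more signal for a ligand that PDGFRα binds.

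Pdgfa encodes the chain best known as the PDGFRα ligand. Probe set 1449187_at read 833 in double-negative, 1699 in single-positive and 562 in double-positive cells, and 540.2, 831 and 459.9 by its other probe set. By both probe sets it was highest in single-positive cells and lowest in double-positive cells. It was 3.02-fold and 1.81-fold lower in double-positive than in single-positive cells, on either side of 2-fold. The step from double-negative to single-positive cells was 2.04-fold and 1.54-fold. With the mean over both probe sets, that step had a log2 ratio of 0.83, under 2-fold, and the step to double-positive cells one of −1.22. The double-negative and double-positive signals were within 2-fold of each other. Pdgfa and Pdgfc, which act on the same receptor, therefore went opposite ways between single-positive and double-positive cells.

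Pdgfd encodes a latent ligand that acts mainly on PDGFRβ. Its probe set with the highest mean, 1456532_at, read 151 in double-negative, 884 in single-positive and 784 in double-positive cells. By this probe set both PDGFRα+ populations stood apart from the PDGFRα− one, by 5.88-fold and 5.21-fold, and differed from each other by 1.13-fold. The other 2 probe sets did not carry this pattern. The second read 28.5, 126 and 30.7 and passed the floor only in single-positive cells, where it was at least 1.36-fold higher than in either other population. The third read 39.4, 25.9 and 35.2, under the floor throughout. With the mean over the 3 probe sets, the log2 ratio of single-positive over double-negative cells was 0.998, just under 2-fold, and that of double-positive over double-negative cells 0.79. The Pdgfd calls therefore rest on 1 probe set.

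Pdgfb encodes the chain that binds both receptors and is known from endothelium and platelets. Probe set 1450413_at read 77.6 in double-negative, 61.0 in single-positive and 96.9 in double-positive cells, and 58.2, 25.9 and 37.7 by its other probe set. It passed the floor on 1 array of 3 and by 1 probe set, by a margin of 1.04-fold. With the other arrays under the floor, its only ratios are bounds at that value, and no difference was read from them.

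In counts, 3 of the 7 members were 2-fold or more higher in double-positive than in single-positive cells (Pdgfra, Pdgfrb and Pdgfc) and 2 were lower (Pdgfrl and Pdgfa). Of all 11855 genes compared in that pair, 14.9% were higher and 11.3% lower. In single-positive over double-negative cells 4 of 6 members compared were higher (Pdgfra, Pdgfa, Pdgfc and Pdgfd) and 0 lower, beside 4.82% and 5.63% of 11675 genes. In double-positive over double-negative cells 4 of 7 were higher (Pdgfra, Pdgfrb, Pdgfc and Pdgfd) and 1 lower (Pdgfrl), beside 14.5% and 12.2% of 11843 genes. The median log2 ratio of the members was 0.06, 1.25 and 2.38 in these comparisons, and that of all genes compared 0.07, −0.03 and 0.03. The member median of 0.06 is the bound of Pdgfb itself, and without Pdgfb the member medians were 0.53, 1.25 and 2.54. Pdgfra is the sorting gene and enters 2 of these counts through the gate. The comparisons share arrays, so their counts are not separate evidence.

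**Figure D2:**
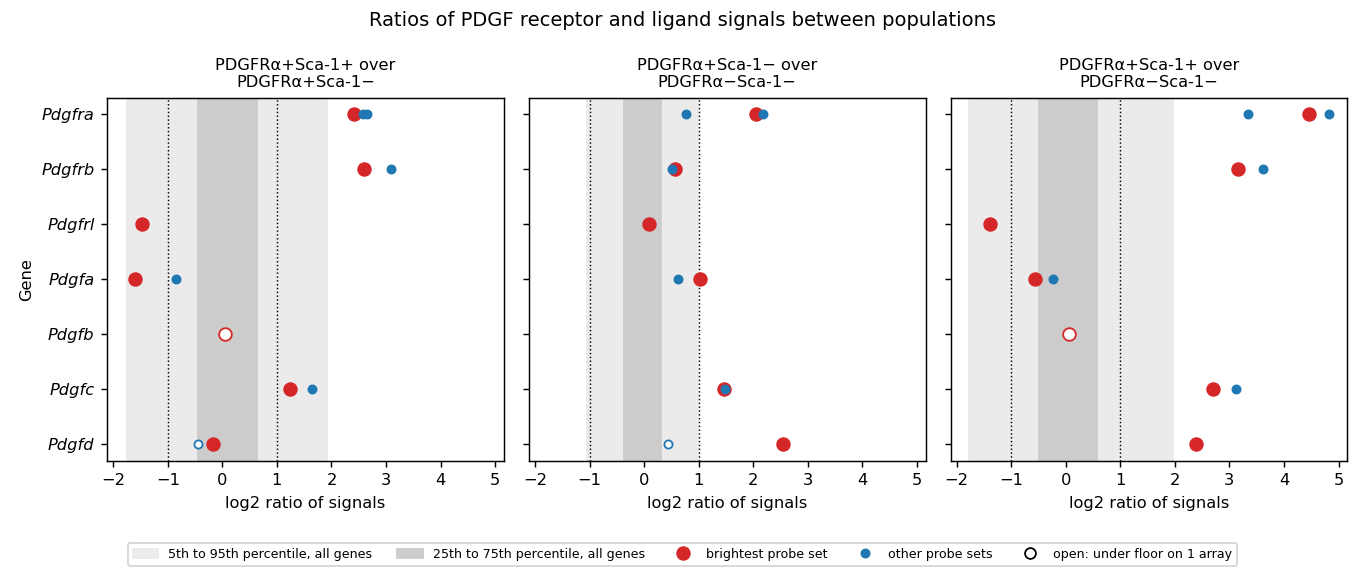
Log2 ratios of signals for each member in the 3 comparisons, with the brightest probe set in red, other probe sets in blue and open symbols where 1 array was under the floor. Grey bands give the spread over all genes compared and dotted lines mark 2-fold; Pdgfra, Pdgfrb and Pdgfc lie above 2-fold by every probe set in both comparisons of double-positive (PDGFRα+Sca-1+) cells.

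With 1 array per population the error between samples is unknown. Different probe sets of a gene read the same RNA, so their scatter shows disagreement between probes and says nothing of variation between mice or sorts. The standard deviation of log2 ratios between probe sets of the same gene, over all genes with several measured, was 0.60 for double-positive over single-positive, 0.37 for single-positive over double-negative and 0.50 for double-positive over double-negative cells. The log2 ratios of Pdgfrb, Pdgfra and Pdgfc at the step to double-positive cells were 2.60, 2.41 and 1.23. The Pdgfa step from double-negative to single-positive cells, with a log2 ratio of 1.03 against 0.62 by the other probe set, sat on the threshold. The ratio of 3′ to 5′ signal of the Actb control was 2.99, 2.63 and 4.65 in double-negative, single-positive and double-positive cells, and that of Gapdh 3.93, 3.54 and 4.73. Both were highest on the double-positive array, and the part of RNA quality in these results was not tested.

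The genes whose signals changed most like those of a member were found over the 3 arrays, by the root mean square distance between log2 signals after each gene was centred on its mean. Candidates were the 9751 other genes above the floor on all 3 arrays. Nearest to Pdgfra was Fst, which encodes the activin antagonist follistatin, at a distance of 0.140, followed by Rcan2 (0.165), Anxa3 (0.178) and the adrenomedullin gene Adm (0.193). Nearest to Pdgfrb were the calcium-binding protein gene S100a4 (0.018), the growth factor gene Igf1 (0.030), Ccn3 (0.046) and Igfbp6 (0.059). Those of Pdgfc were Rassf5 (0.038), the adaptor gene Gab2 (0.087), Peli2 (0.102) and the galectin gene Lgals1 (0.102). Pdgfd was nearest to Tpbgl (0.120), Tmtc2 (0.168), S100a8 (0.215) and the collagen cross-linking enzyme gene Lox (0.225). Those of Pdgfa were Ddit3, a stress-response transcription factor gene (0.019), Inpp1 (0.023), Samhd1 (0.033) and Srp54b (0.033). The list for Pdgfrl was Ss18l2 (0.018), Ivns1abp (0.019), Furin (0.024) and Vrk3 (0.026). Furin is itself on the PDGF lists, as a protease that cuts the A chain from its precursor. For Pdgfb, set against the 535 other genes above the floor on the same arrays, the rule gave Opalin, Rbks, Ighmbp2 and Slitrk1, which passed it by a few units and, like Pdgfb, only in double-positive cells. With 3 arrays many genes share a pattern, and these names are a description only. Among the candidates for Pdgfra, Pdgfrb ranked 81 at a distance of 0.658 and Pdgfc 103 at 0.729.

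The wider PDGF pathway was read through 6 lists, with 99 of 107 listed genes on the array under a single symbol. In double-positive over single-positive cells 14 of 93 genes compared were 2-fold or more higher and 21 lower, with a median log2 ratio of −0.09. In single-positive over double-negative cells 9 of 91 were higher and 4 lower (median 0.13). In double-positive over double-negative cells 14 of 95 were higher and 17 lower (median −0.04). The 21 lower genes are 22.6% of their comparison, against 11.3% over all genes, and the 9 higher genes 9.89% of theirs, against 4.82%. The 17 lower genes in double-positive over double-negative cells are 17.9%, against 12.2%. The other 3 shares, of 4.4%, 14.7% and 15.1%, stood beside 5.63%, 14.5% and 14.9% over all genes.

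Genes that process or hold PDGF ligands went both ways between single-positive and double-positive cells, with 3 of 11 higher and 4 lower. These are 27.3% and 36.4%, against 14.9% and 11.3% over all genes. Plat, the tissue plasminogen activator known to release active PDGF-C, read 1188 in double-negative, 1170.05 in single-positive and 5907 in double-positive cells. It was 5.05-fold higher in double-positive than in single-positive cells, and both of its probe sets passed 2-fold. Plat and Pdgfc were thus highest in the same population. Lrp1, an endocytic receptor that modulates PDGF receptor signalling, was 2.90-fold higher and the co-receptor gene Nrp1 2.48-fold higher, but other probe sets of both had log2 ratios of −0.18 and −0.57. The proteoglycan gene Cspg4, whose product NG2 binds PDGF-A, was 4.90-fold lower in double-positive cells, at 2059 against 10083. Thbs1 was 4.55-fold lower. A2m, the gene of the protease inhibitor α2-macroglobulin, which binds PDGF, was highest in double-negative cells at 3124, against 492 in single-positive and 125 in double-positive cells. Pcsk5, a convertase of growth factor precursors, was 3.05-fold higher in single-positive than in double-negative cells, and Pcsk7 2.03-fold. Sparc, which encodes a matrix protein that binds the PDGF B chain, was within 2-fold in every comparison, at signals of 27053 to 38630 over the arrays. Its signals of 38630 in double-negative and 36952 in single-positive cells lay near the highest deposited on those arrays, 40707 and 38540. Whether ratios of such bright probe sets are compressed was not tested.

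Signal transducers of the receptors were within 2-fold for 23 of 36 genes in double-positive over single-positive cells (63.9%, against 73.8% of all genes), 33 of 36 in single-positive over double-negative (91.7% against 89.6%) and 27 of 36 in double-positive over double-negative cells (75% against 73.4%). In double-positive over single-positive cells 4 were higher and 9 lower (11.1% and 25%, against 14.9% and 11.3% of all genes). Pik3r2, a regulatory subunit of phosphoinositide 3-kinase, was 4.18-fold higher in double-positive than in single-positive cells, and its relative Pik3r1 3.54-fold lower, with a weakest probe set at −0.62 on the log2 scale. The Src family kinase gene Fyn was 2.93-fold higher, with a log2 ratio of 0.97 by its other probe set. The adaptor genes Gab1 and Grb14 were 4.81-fold and 26.1-fold lower. All 3 Gab1 probe sets passed 2-fold, while the other Grb14 probe set had a log2 ratio of −0.37. Stat5b was 2.36-fold higher by its brightest probe set, but the other had a log2 ratio of −1.04. Grb10, an adaptor, was within 2-fold in all 3 comparisons. In single-positive over double-negative cells Grb14 was 2.83-fold higher, and Stat5a and Stat5b 2.41-fold and 2.23-fold lower. Their other probe sets were all within 2-fold, with log2 ratios of 0.37, −0.37 and −0.13.

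Negative regulators of receptor tyrosine kinases were 2-fold or more higher in double-positive over single-positive cells for 3 of the 19 compared and lower for 3, with 13 in between. The higher and the lower genes are 15.8% each, near the 14.9% and 11.3% over all genes. Spry1, a feedback inhibitor of receptor signalling, had the order of Pdgfra, at 224 in double-negative, 494 in single-positive and 1983 in double-positive cells. The ubiquitin ligase gene Cblb had the same order, at 558, 953 and 2332, with a lowest log2 ratio of 0.48 over its probe sets from single-positive to double-positive cells. Lrig1 was 3.38-fold higher in double-positive than in single-positive cells, but a further probe set gave a log2 ratio of −0.05. Dusp5, a phosphatase that acts on ERK kinases, had a single probe set. It was 22.2-fold lower in double-positive than in single-positive cells, at 399 against 8842. Ptpn2 was 2.14-fold and Spry4 2.09-fold lower, with weakest probe sets at −0.97 and −0.77 on the log2 scale. Errfi1, a feedback inhibitor of EGF receptors, read 36877, 35864 and 22129 and was within 2-fold, but its other probe set had log2 ratios of −2.06 in double-positive over single-positive and −2.38 in double-positive over double-negative cells. In single-positive over double-negative cells 1 of 18 was higher (Spry1, 2.20-fold) and 1 lower (Socs1, 2.01-fold). Each is 5.56% of those compared, against 4.82% and 5.63% over all genes.

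Immediate early genes respond within minutes to growth factors and to many other stimuli, cell isolation included. All 17 were above the floor on every array. In double-positive over single-positive cells 0 were 2-fold or more higher and 4 lower, with a median log2 ratio of −0.67 over the list against 0.07 over all genes. The shares were 0% and 23.5%, against 14.9% and 11.3% over all genes. Fosl1 was 4.57-fold, Egr3 3.93-fold and Egr2 3.40-fold lower in double-positive cells, but the other Egr3 probe set had a log2 ratio of −0.20. Egr1 had signals of 29329, 31864 and 28738 in double-negative, single-positive and double-positive cells and was within 2-fold. In single-positive over double-negative cells Egr2 (3.41-fold) and Egr3 (2.04-fold, with 0.40 on the log2 scale by its other probe set) were higher and 0 genes lower. The shares there were 11.8% and 0%, against 4.82% and 5.63% over all genes. Nr4a1, Klf4 and Myc, named after their values were seen, were highest in double-positive cells but within 2-fold.

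Relatives of the family were read in the same way. Among VEGF genes, whose products share the cystine-knot fold of PDGFs, Vegfc read 95.4 in double-negative, 303 in single-positive and 3491 in double-positive cells. It was 11.5-fold higher in double-positive than in single-positive cells, and all 3 of its probe sets passed 2-fold. Vegfd was at least 10.4-fold higher in double-positive cells than in either other population, where it was under the floor. Vegfa had the order of Pdgfa, at 3677, 9001 and 1757, and was 5.12-fold lower in double-positive than in single-positive cells, with both probe sets past 2-fold. The VEGF receptor gene Flt1 was under the floor on every array, and Kdr read 67.1, 110.4 and 155. Among class III receptor kinases, the structural relatives of PDGF receptors, Kit and Flt3 were under the floor on all 3 arrays and Csf1r read 112, 191 and 158, within 2-fold, though its lowest probe set had a log2 ratio of −1.20 in double-positive over single-positive cells. Their ligand genes Kitl and Csf1 were 7.35-fold and 9.31-fold higher in double-positive than in single-positive cells.

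**Figure D3:**
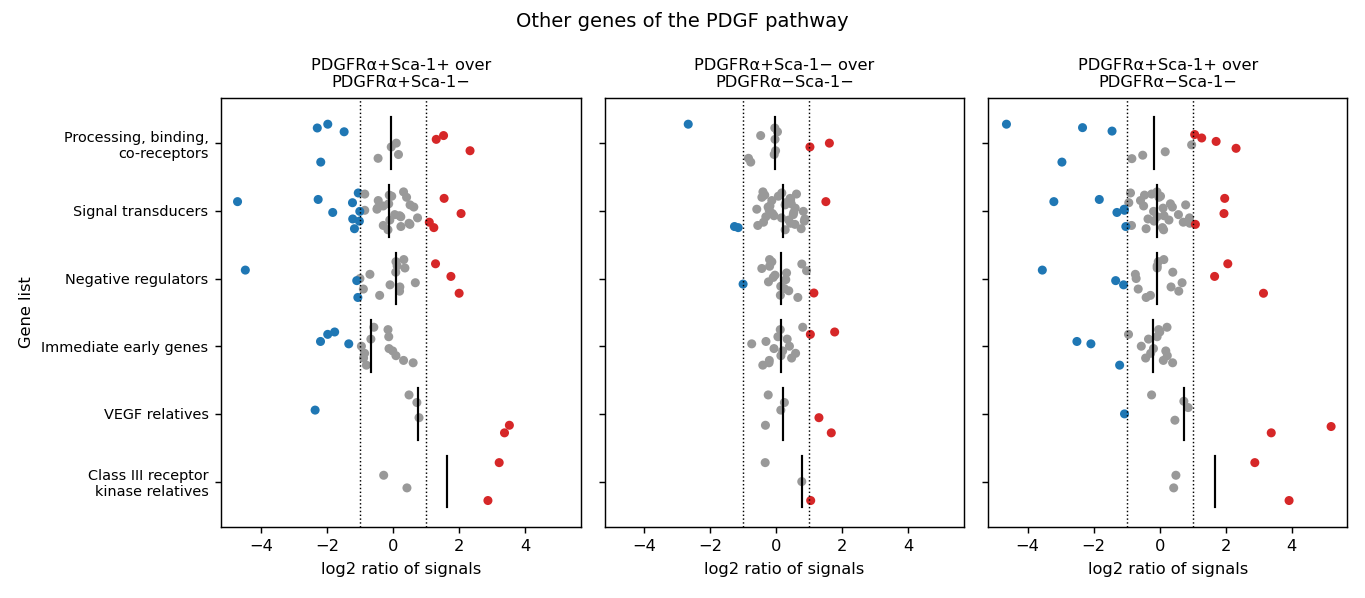
Log2 ratios of the other PDGF pathway genes in the 3 comparisons, by list, with genes 2-fold or more higher in red, 2-fold or more lower in blue and others in grey. Black bars are list medians; in double-positive (PDGFRα+Sca-1+) over single-positive (PDGFRα+Sca-1−) cells the immediate early genes have a median of −0.67 and none passes 2-fold upward.

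Different probe sets of the named pathway genes often differed. Of 26 named genes past 2-fold in double-positive over single-positive cells, 22 had several probe sets that could be compared. All of them passed 2-fold for 11 genes, and for 4 at least 1 went the other way. In single-positive over double-negative cells this held for 3 of 8 and 0, and in double-positive over double-negative cells for 14 of 19 and 2. A2m, Pik3r2, Spry1, Dusp5, Pcsk7 and Socs1 had a single probe set, so no other could check their ratios.

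Markers of cell types were set beside the members. Sums over a list include signals under the floor and are followed across the arrays only. Of 10 endothelial genes, a class known to express Pdgfb, 1 to 3 passed the floor on each array. Pecam1, Cdh5 and Tie1 were under it on all 3, while Tek reached 888 in double-positive cells. The list's summed signal was 434 in double-negative, 518 in single-positive and 1236 in double-positive cells, of which 112, 309.5 and 1043 came from genes above the floor. Of 8 megakaryocyte and platelet genes with a value, 3 to 6 passed the floor, with summed signals of 2019.6, 1189 and 1912. Pf4 lay at 94.4, 63.1 and 104, and Itga2b reached 1224 in double-positive cells. Gp1bb read 946, 479 and 307 and Treml1 255, 150 and 77.1, both lowest in double-positive cells. Of the 6 genes compared in double-positive over double-negative cells, 1 was higher and 2 lower. These are 16.7% and 33.3%, against 14.5% and 12.2% over all genes. Leukocyte markers summed to 729.8, 831 and 1036, with Ptprc (CD45) at most at 74.1, and erythroid markers to 966, 662 and 352.

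Pericyte and smooth muscle genes, the class best known for Pdgfrb, went both ways. Their summed signal was 16916, 14110.2 and 8424 in double-negative, single-positive and double-positive cells, and 7, 7 and 8 of 12 passed the floor. In double-positive over single-positive cells 3 of 8 compared were higher and 1 lower (37.5% and 12.5%). Over all genes 14.9% were higher and 11.3% lower in that comparison. Rgs5 (1503 against 168 in single-positive cells) and Abcc9 (1333 against 269) were highest in double-positive cells, as Pdgfrb was. Cspg4, at 10403, 10083 and 2059, and Tagln, at 2239.5, 333 and 201, were lowest there, and Cspg4 made up most of the sum in the other populations. Myh11, Mcam and Higd1b were under the floor on all 3 arrays. The fibroblast list summed to 46509 in double-negative, 63173 in single-positive and 146732 in double-positive cells. Of its 9 members, 7 (77.8%) were 2-fold or more higher in double-positive than in single-positive cells and 0 lower. The chondrocyte list summed to 276386, 310983 and 45336, with 12 of 13 (92.3%) lower in double-positive than in single-positive cells and 0 higher. The osteoblast and osteocyte list summed to 31337, 99087 and 18044, with 5 of 6 (83.3%) lower. All 13 cartilage genes were above the floor on every array of these cells labelled endosteal. The part of cell makeup in the PDGF results was not tested.

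**Figure D4:**
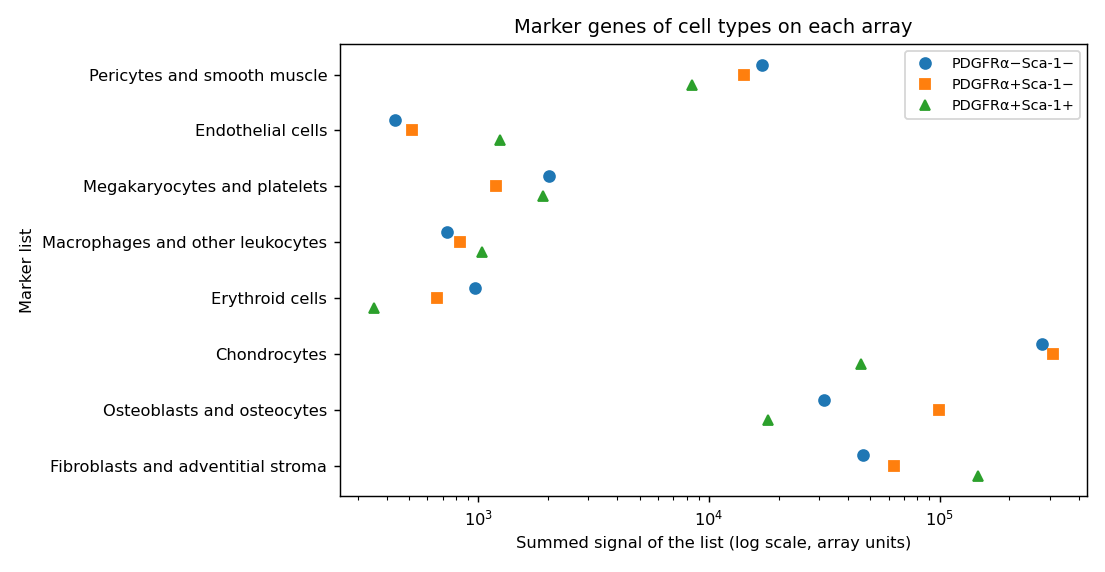
Summed signal of each marker list on the 3 arrays, on a log axis, with a symbol per population. Fibroblast genes sum highest and chondrocyte genes lowest in double-positive (PDGFRα+Sca-1+) cells. The endothelial, leukocyte and erythroid lists reach at most 1236, and the megakaryocyte and platelet list 2019.6. Each list is followed across the arrays only.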

How the data were processed

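RNA from 3 sorted cell populations was amplified and biotin-labelled in a 2-cycle assay and read on 1 Affymetrix array each, per the labels' protocols. The authors deposited linear intensities per probe set, computed with MAS5, per the submitters' processing notes; neither its version nor detection calls or filters are stated in the sources used here. Their 2% trimmed mean was 500.0 on each array. Here 64 control probe sets were removed and the arrays were set to an equal 2% trimmed mean. Signals under a floor of 93.2 (mean of the array medians) were replaced by it ahead of log2 transformation. The probe set of highest mean log2 signal stood for its gene. Names came from the platform annotation: 34945 probe sets had 1 symbol and 10092 several or none, which were not used. Amplification in 2 rounds favours 3′ ends. With 1 array per population, the number of arrays limits the precision, and no test was possible.

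The members and gene lists were chosen with earlier results of these data known. From each pathway list, up to 3 genes per direction and the brightest gene within 2-fold were eligible to be named, and for each member above the floor the 4 genes of most similar pattern. Flt1, Kit, Flt3 and the marker genes were named outside this rule, to give the receptors and defining markers. Nr4a1, Klf4 and Myc were also named outside it, after their values were seen. Alternatives were a floor at the 33rd or 67th percentile, the mean over probe sets, leaving out _s_at and _x_at probe sets, quantile normalization and unscaled signals. The calling step was tested on simulated data, with changes larger than 2-fold in genes well above the floor. The simulated noise was smaller than the scatter between probe sets. That test therefore says nothing of ratios near 2-fold or signals near the floor. Python 3.11.15, pandas 2.3.3, numpy 2.4.6 and matplotlib 3.10.9 were used.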

Additional observations from a re-analysis of the deposited data

How the results depend on the processing

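Across the 6 alternatives, 118 member log2 ratios were recomputed. None of those at 2-fold or more in the main processing changed sign, and smaller ratios were not checked for sign. Of the 118, 6 moved by more than the scatter between probe sets, and 6 of 126 calls changed. The mean over probe sets moved most. It gave 2 members higher in single-positive over double-negative cells instead of 4, with log2 ratios of 1.66 for Pdgfra and 0.998 for Pdgfd, and 0.79 for Pdgfd in double-positive over double-negative cells. It gave 8 pathway genes higher in double-positive over single-positive cells, 9 in double-positive over double-negative cells, and 2 lower in single-positive over double-negative cells, because every probe set enters. A floor at the 67th percentile lowered the Pdgfd log2 ratios to 1.79 and 1.61 over double-negative cells and left 5 pathway genes higher in single-positive over double-negative cells. A floor at the 33rd percentile gave 7 lower there and a Pdgfb log2 ratio of 0.67 in double-positive over single-positive cells. Quantile normalization changed no member call. Unscaled signals and leaving out shared probe sets changed none either, but could hardly do so. The scaling factors were 1.00014, 1.00098 and 0.99888, and the only member probe set left out, 1449351_s_at, did not stand for Pdgfc. Their calls are part of the 126. Of 387 recomputed ratios of named pathway genes, 360 were past 2-fold and 0 had the opposite sign. These genes were named because they passed 2-fold in the main processing, and most alternatives read the same probe set. That outcome was thus largely set by the selection and is no check of the ratios. Over all genes, single-positive over double-negative cells had 563 higher and 657 lower, against 369 and 408 with the mean over probe sets and 365 and 388 with the higher floor. No paired analysis was possible because each population had 1 array. Signals within a few units of the floor limit Pdgfb and the dim probe sets of Pdgfra and Pdgfd.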
